A study of Mus musculus with 6 samples.

Results

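The clustered protocadherin locus of mouse chromosome 18 held 226 m6A regions, of 43377 in the whole series. Its members were chosen by position: every peak of the 3 deposited lists with its summit between 37080000 and 38002000 on mm9, a stretch of 922 kb. They numbered 190 of 32858 peaks in the list of m6A IP 1, 162 of 32671 in that of m6A IP 2 and 129 of 24686 in that of m6A IP 3. Any peaks overlapping by 1 base or more, within or between lists, formed 1 region, and a region holding a peak of each list is called recurrent. The locus was divided into an alpha block (37080000 to 37400000), a beta block (37400001 to 37780000) and a gamma block (37780001 to 38002000), with 50, 96 and 80 regions.

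Clustered protocadherins are neuronal cell adhesion proteins. Each neuron expresses its own combination of isoforms, and matching combinations let the branches of 1 neuron recognise and avoid each other. In the alpha and gamma clusters, each variable exon has its own promoter, codes for the whole extracellular part of the protein, and is spliced to constant exons shared by the cluster. The last variable exons of these clusters, named C-type, are expressed more uniformly than the others. Beta genes have a single coding exon and no shared constant exons. RefSeq lists 14 alpha genes (Pcdha1 to Pcdhac2), 22 beta genes (Pcdhb1 to Pcdhb22) and 22 gamma genes (Pcdhga1 to Pcdhgc5) in this order, with Slc25a2, Taf7 and the pseudogene Gm8242 between the beta and gamma genes. All 57 protocadherin genes that were matched in GENCODE M21 lie on the forward strand, so downstream here means toward higher coordinates. The strand of the genes between the beta and gamma clusters was not checked. N6-methyladenosine (m6A) is an internal methylation of mRNA that is known to be frequent near stop codons and in long internal exons.

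The samples were whole mouse brain, 3 libraries of polyadenylated RNA precipitated with an m6A antibody and 3 input libraries without antibody. Each list set 1 IP against 1 input. No treatment, genotype, strain, age or sex is given in the sources used here, and nothing states that each replicate is a different animal. SDs and p-values therefore measure only the spread between these libraries, which may be technical. The IP libraries held 16764956 to 18489297 tags, of which 5676427 to 6493926 were kept after removal of duplicates. The inputs kept 7185922 to 11589632. Keeping 1 tag per position limits how high a pileup can grow. The list of m6A IP 3 was the shortest. Because the lists carry positions on mm9 and no gene names, the labelled tissue could not be checked against marker genes, and no region was assigned to a gene. In whole tissue, fewer expressing cells and less RNA per cell cannot be told apart.

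The locus held more peaks than any of the fixed windows of its length laid over the rest of the genome. The locus held 190, 162 and 129 peaks in m6A IP 1, 2 and 3. Among the 2393, 2390 and 2329 windows of 922 kb elsewhere with at least 1 peak, the median held 9, 8 and 7 and the fullest 114, 121 and 89. The locus was proposed with its peak number known and has its own bounds, while the windows start at arbitrary places, so this is a description. Density over the full width of the blocks rose from alpha to gamma in each list. It was 12.2, 10.6 and 7.50 peaks per 100 kb in alpha, 22.4, 17.9 and 17.1 in beta, and 29.7, 27.0 and 18.02 in gamma. These widths include margins without regions. Beta regions lay from 37454569 to 37680397 in a block of 380 kb, and gamma regions from 37802955 to 37981763 in 222 kb. The order of beta and gamma therefore depends on the bounds. A long gap without peaks stood before the first region of the locus, and a shorter one after its last region. The first region inside, chr18:37091579-37091816, had pileups of 12, 15 and 10 IP tags (the pileup is the number of IP tags over the summit). It lay 134 kb beyond chr18:36957561-36957689, the nearest region upstream, where m6A IP 1 and 2 had 40 and 43 tags and m6A IP 3 had no peak. At the other end, chr18:37981542-37981763 had 38, 37 and 34 tags, and the next region, chr18:38004800-38004944, lay 23.0 kb further with 26 and 23 tags in m6A IP 1 and 2. Most of this gap lies inside the bound of 38002000. Among gaps between neighbouring regions elsewhere, the upper quartile was 37457.5 bases, above this gap and below the upstream one.

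**Figure D1:**
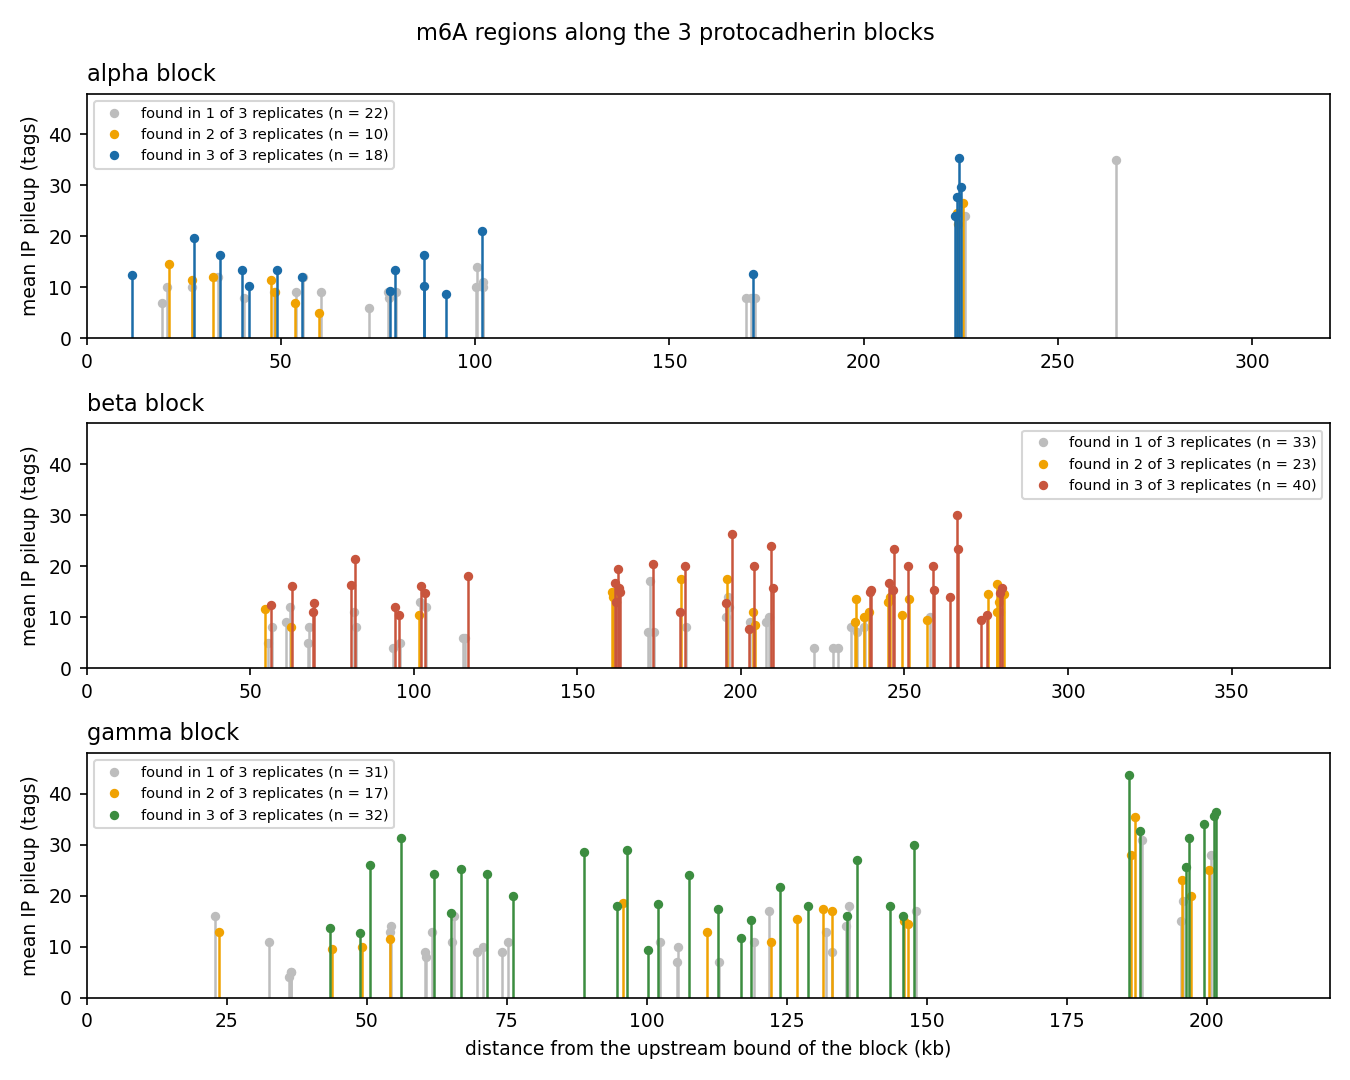
Mean IP pileup (tags, over the replicates with a peak) of each of the 226 regions against its distance in kb from the upstream bound of its block, coloured by the number of replicates in which it was found. The regions form short groups with gaps between them, and the tallest stand at the downstream end of the alpha and gamma blocks.

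Alpha and beta peaks were low and gamma peaks were close to the genome in height. The median pileup in m6A IP 1, 2 and 3 was 12, 13.5 and 11.5 tags in alpha, 13, 15 and 13 in beta, and 18, 18.5 and 19 in gamma. Elsewhere it was 19, 21 and 19. Alpha and beta stood below the rest of the genome in every list and did not overlap it, while gamma touched it. The gamma medians include a tall late stretch, described below. The gamma peaks before that stretch had medians of 17, 15.5 and 16 tags, below elsewhere and above beta in each list. The difference from elsewhere was -7.33 ± 0.289 tags in alpha, -6.0 ± 0 in beta and -1.17 ± 1.26 in gamma (SD, n = 3 replicates). Between the blocks, gamma exceeded beta by 4.83 ± 1.26 tags and alpha by 6.17 ± 1.26, in 3 of 3 replicates. An exact two-sided sign-flip permutation test over 3 replicates cannot go below p = 0.25, and gave 0.25 for both. A single pileup is imprecise: 12 tags have a 95% exact Poisson interval of 6.20 to 20.96, and 19 tags one of 11.4 to 29.7. These intervals cover counting error only.

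The input under the protocadherin peaks was also low, and the fold enrichment was higher than elsewhere in all blocks. The input background is the number of scaled input tags expected at the summit, and the fold is the authors' ratio of pileup to background with 1 added to each. The median background was 1.26, 1.48 and 0.991 tags in alpha, 1.26, 1.68 and 1.32 in beta, and 2.29, 2.27 and 1.89 in gamma, against 3.05, 3.36 and 3.17 elsewhere. The median fold was 5.59, 5.56 and 5.35 in alpha, 5.95, 5.63 and 5.92 in beta, and 5.57, 5.19 and 4.78 in gamma, against 4.78, 4.57 and 4.52 elsewhere. Within each list, every block had a lower background and a higher fold than the rest of the genome. Across lists the backgrounds did not overlap, while the lowest gamma fold met the highest fold elsewhere. Over the whole locus the fold was higher than elsewhere by 0.956 ± 0.0350 (SD, n = 3), in 3 of 3 replicates, with an exact sign-flip p of 0.25, the smallest possible. The background is the denominator of the fold and moved with it, and its part in the higher fold was not tested. The lists hold only peaks that passed the q-value cutoff, which asks for a higher fold over a low background. The part of this cutoff was not tested either.

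**Figure D2:**
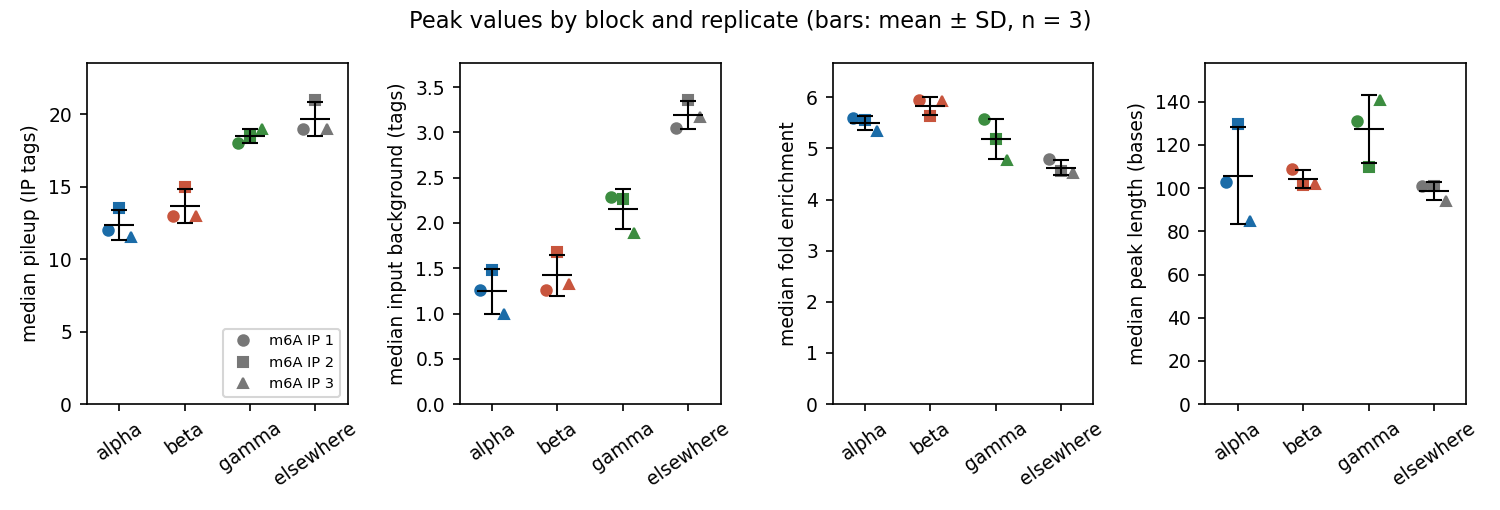
Median pileup (IP tags), input background (scaled input tags), fold enrichment and peak length (bases) of the peaks of each block and of the rest of the genome, 1 point per replicate, with bars for the mean ± SD (n = 3). Alpha and beta lie below the rest of the genome in pileup and background, and alpha and beta lie above it in fold.

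Gamma peaks were longer than beta peaks in each list, and alpha lengths varied most between lists. The median length was 131, 110 and 141 bases in gamma, 109, 102 and 102 in beta, and 103, 130 and 85 in alpha (101, 101 and 94 elsewhere). The gamma minus beta difference was 23.2 ± 15.3 bases (SD, n = 3), in 3 of 3 replicates, with an exact sign-flip p of 0.25. Alpha and gamma overlapped: gamma was longer in 2 of 3 replicates, by 21.5 ± 38.2 bases on average. Among recurrent regions, whose length grows with the number of peaks merged, the median was 209 bases in alpha, 245 in beta and 264 in gamma, against 185 elsewhere.

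About as many regions recurred as in the rest of the genome. All 3 replicates shared 18 of 50 alpha regions (36.0%, Wilson 95% interval 24.1 to 49.9), 40 of 96 beta regions (41.7%, 32.3 to 51.7) and 32 of 80 gamma regions (40%, 30.0 to 51.0), where the whole series had 38.6%. The intervals of the 3 blocks overlap each other and include that background. Wilson intervals here and below treat regions or runs as independent, though all come from the same 3 libraries. A further 50 regions were found in 2 replicates. With the recurrent ones this makes 140 of 226, beside 61.2% in the whole series. Of the 50, lists 1 and 2 shared 37, lists 1 and 3 shared 11, and lists 2 and 3 shared 2. The other 86 were found once, 48 of them in list 1, 22 in list 2 and 16 in list 3. Without m6A IP 3, 127 regions were shared by both remaining lists. All these counts rest on overlaps of 1 base or more. With a reciprocal overlap of 50%, the shares in all 3 lists were 22.0% in alpha, 12.5% in beta and 24.2% in gamma. The share elsewhere was not computed for that setting.

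Recurrence at a given height was above or below the rest of the genome depending on the block, the list and the pileup class. Of peaks with at most 10 tags, 20.4%, 32.1% and 45.2% of those in the locus lay in recurrent regions in m6A IP 1, 2 and 3, against 22.5%, 20.3% and 38.9% elsewhere. At 16 to 25 tags, the beta block had 23 of 26, 24 of 28 and 15 of 15 peaks in recurrent regions, or 88.5%, 85.7% and 100%. Elsewhere the shares were 58.0%, 59.5% and 81.7%, so beta was above them in each list. Gamma had 57.7%, 75% and 88.9%, which is above in 2 lists and about level in m6A IP 1. Alpha, with 7 or 8 peaks a list, had 62.5%, 42.9% and 100%, below in m6A IP 2. At 11 to 15 tags, beta had 36%, 56% and 78.8% and gamma 21.4%, 33.3% and 85.7%, against 42.2%, 43.9% and 67.3% elsewhere. Beta was below there in m6A IP 1, and gamma in m6A IP 1 and 2. Alpha was above in each list, with 54.5%, 66.7% and 83.3%. Over 25 tags, the locus as a whole had 84.6%, 87.5% and 91.7% against 76.1%, 70.5% and 94.6%. The pileup classes were chosen after the values were seen, and these shares were not recomputed with a stricter overlap.

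Among strong peaks, most of the recurrent regions were in the gamma block. With peaks of a −log10 q-value of at least 10 alone, 10 of 29 gamma regions had all 3 lists (34.5%, Wilson 95% interval 19.9 to 52.7). The beta block kept 2 of 22 (9.09%, 2.53 to 27.8) and alpha 2 of 14 (14.3%, 4.01 to 39.9). The share elsewhere was 18.6%, inside the intervals of alpha and beta and below that of gamma. The 10 gamma regions lay in 10 different groups of neighbours, as these are defined next, and each was the tallest of its group. Of these, chr18:37923317-37923543 was the only region of its group. A high −log10 q-value goes with a high pileup, so being the tallest was partly built into the choice.

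Regions came in short groups, and in the beta and gamma blocks most of these groups were of similar length. Neighbouring regions with at most 2000 bases between them were joined into a run, a limit chosen after the gaps were seen. In alpha it fell in an empty interval, with no gap between 1229 and 4032 bases, but in gamma it fell among gaps of similar size, between 1677 and 2049 bases. This gave 16 runs in alpha, 22 in beta and 25 in gamma, beside the 14, 22 and 22 genes that RefSeq lists there. Limits of 1500, 2500 and 3000 bases gave 30, 20 and 16 runs in gamma, 25, 21 and 20 in beta and 16 each time in alpha. Whether a run is a gene was not tested. Of the runs, 12, 20 and 21 held at least 1 recurrent region, or 84.1% in the locus, where 45.9% of runs elsewhere did. Runs in the locus held a median of 3 regions, against 1 elsewhere, and a run with more regions has more chances to hold a recurrent one.

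Runs of 2 or more regions spanned a median of 1939 bases in alpha, 2164 in beta and 2168 in gamma, against 962 elsewhere. A span of 2000 to 2500 bases, a range also chosen after the spans were seen, was found in 18 of 21 beta runs (85.7%), 16 of 22 gamma runs (72.7%) and 2 of 12 alpha runs (16.7%), beside 8% of runs elsewhere. With run limits of 1500, 2500 and 3000 bases the gamma share was 52.4%, 55.6% and 50%, and the beta share 81.8%, 80% and 73.7%. The exception above it in beta was a run of 10 regions over 6444 bases. In gamma no run exceeded 2489 bases. In GENCODE M21 the longest first exon of each gene has a median length of 2489 bases for alpha genes, 3714 for beta and 2614 for gamma. These lengths come from GRCm38, and no position was compared.

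Runs with a recurrent region followed each other at shorter steps in gamma. From the tallest region of 1 such run to that of the next, the median distance was 9.05 kb in alpha (quartiles 6.37 and 20.0, 11 steps), 7.97 kb in beta (6.75 and 12.4, 19 steps) and 5.54 kb in gamma (4.91 and 7.30, 20 steps). Counted between single recurrent regions, the median gap was 5853 bases in alpha, 1596 in beta and 3784 in gamma, with 95% order-statistic intervals of 1176 to 8895, 833 to 5894 and 1736 to 5018. That order was not stable. Without m6A IP 3 the medians were 1614, 1328 and 1700 bases, and with lists of equal length 6297, 6143 and 4263. Only 2 of 31 gamma gaps between recurrent regions were at most 500 bases, against 11 of 39 in beta and 4 of 17 in alpha, so gamma runs seldom held close recurrent neighbours.

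**Figure D3:**
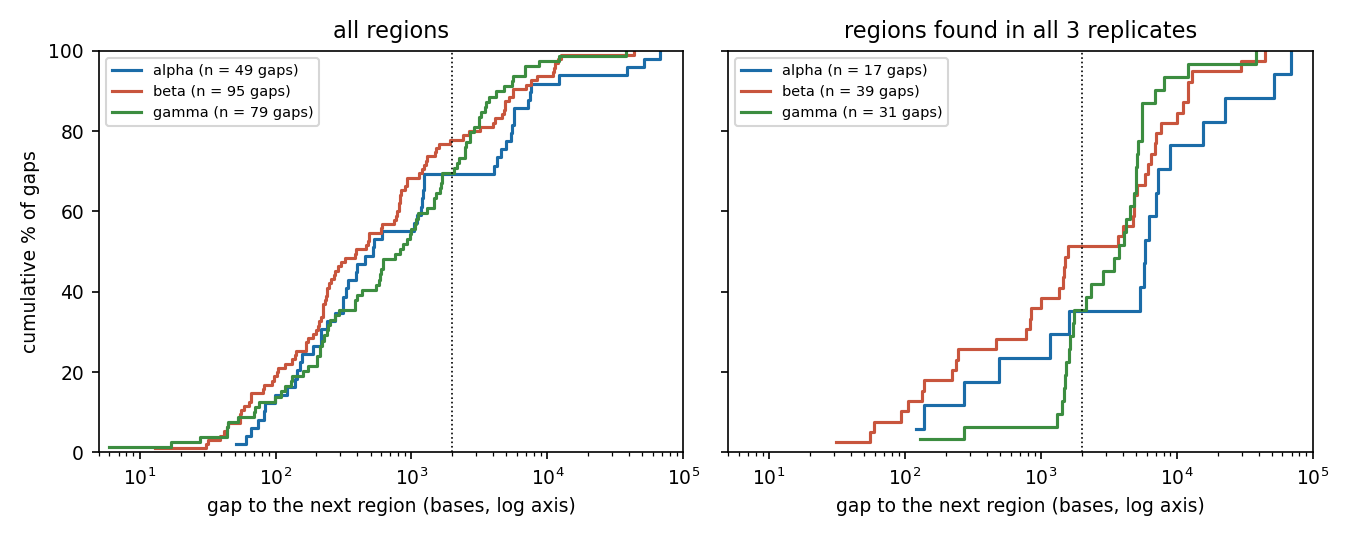
Cumulative percent of gaps between neighbouring regions against the gap in bases (log axis), for all regions and for regions found in all 3 replicates, by block. The dotted line marks 2000 bases. No alpha gap of the left panel lies between 1229 and 4032 bases.

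The tallest region of a run was mostly in its downstream part. Each run of at least 2 regions was divided at the middle of its span, and the tallest region was the one with the highest pileup averaged over the 3 replicates, counting a missing peak as 0. It lay downstream of the middle in 8 of 12 alpha runs (66.7%, Wilson 95% interval 39.1 to 86.2), 18 of 20 beta runs (90.0%, 69.9 to 97.2) and 18 of 21 gamma runs (85.7%, 65.4 to 95.02). A beta and a gamma run whose tallest regions tied were left out. The gamma count includes the run chr18:37802955-37803712. This run may belong to the genes between the beta and gamma clusters, whose strand was not checked. Elsewhere 50.4% of runs had the tallest region at the side of higher coordinates. Strand is not known for those runs, which lie on both strands, so the 50.4% is no measure of the direction of transcription elsewhere.

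The tallest peaks of each single list were also mostly downstream. The runs and their middles still came from the 3 lists merged, so the 3 shares are not independent of each other. By the tallest peak of a single list, the share in the locus was 40 of 47 runs (85.1%) for replicate 1, 36 of 45 (80.0%) for replicate 2 and 29 of 34 (85.3%) for replicate 3. The mean was 83.5% ± 3.0 (SD, n = 3). The share at higher coordinates elsewhere was 50.3%, 50.4% and 48.9%. The locus was higher by 33.6 ± 3.56 percentage points (SD, n = 3), with an exact sign-flip p of 0.25, the smallest possible. Strand is not known elsewhere, so this difference is no measure of the direction of transcription there. The alpha block had the lowest share in each list, with 8 of 11, 6 of 9 and 5 of 7 runs. The runs with the tallest regions of the alpha and gamma blocks were exceptions, with these regions at 0.484 and 0.0384 of the span.

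**Figure D4:**
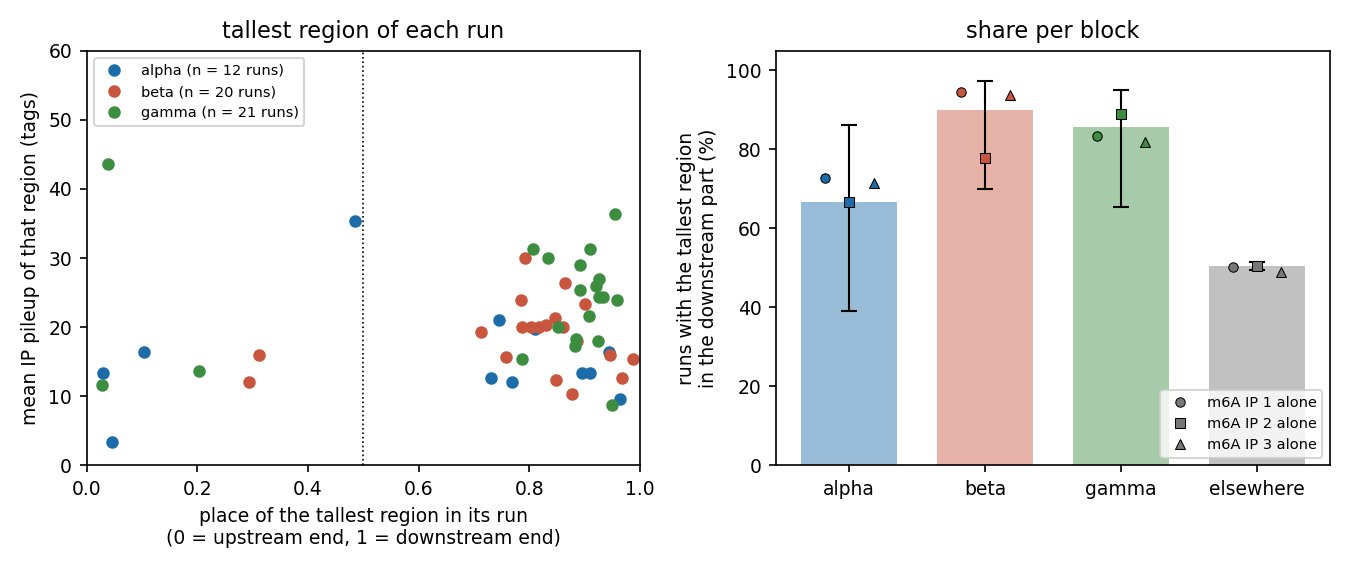
Left, mean pileup (tags) of the tallest region of each of 53 runs against its place in the run from 0 (upstream end) to 1 (downstream end). Right, percent of runs with the tallest region in the downstream part, as bars with Wilson 95% intervals, and by the tallest peak of each replicate alone (points). In the left panel 44 of 53 points lie right of the dotted middle line.

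Regions of the downstream part also recurred more often and were longer. The recurrence is not independent of the place of the tallest region. A missing peak counted as 0 there, which favoured recurrent regions. In all runs of at least 2 regions in the locus, 59 of 109 downstream regions were recurrent (54.1%, Wilson 95% interval 44.8 to 63.2), against 27 of 109 upstream regions (24.8%, 17.6 to 33.6). These intervals treat regions as independent, though regions share runs and libraries, so they are no test of the difference. Elsewhere the shares were 42.0% at the side of higher coordinates and 41.5% at the other. Runs elsewhere lie on both strands, so these 2 shares are no measure of the direction of transcription. The block shares were 43.5% against 26.1% in alpha, 59.2% against 23.9% in beta and 54.1% against 25% in gamma. Downstream peaks had a median length of 155, 135 and 126 bases in m6A IP 1, 2 and 3, and upstream peaks 92, 92 and 89. The groups do not overlap, and the difference was 47.5 ± 13.8 bases (SD, n = 3; exact sign-flip p = 0.25).

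Height followed the same order in gamma and beta but not in alpha. Gamma downstream peaks had a median pileup of 23, 21 and 23.5 tags and upstream peaks 15.5, 14 and 11, a difference of 9.0 ± 3.04 (SD, n = 3). In beta the values were 14.5, 16 and 14 against 11, 13 and 12. In alpha they were 12.5, 13 and 12 against 11, 14 and 17, with the downstream part higher in 1 of 3 replicates. The input background under both parts was close, 1.45, 1.79 and 1.76 tags downstream and 1.53, 1.68 and 1.72 upstream over the locus, a difference of 0.0266 ± 0.0954. In gamma alone it was 1.93, 2.80 and 2.36 tags downstream and 2.29, 1.72 and 1.76 upstream, higher downstream in 2 of 3 replicates. The gamma fold was 7.44, 5.66 and 5.28 downstream and 4.77, 4.89 and 4.35 upstream, higher in 3 of 3.

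The alpha block held 1 dense and tall group near its downstream end and many low regions before it. The tallest recurrent alpha region, chr18:37304530-37304783, had pileups of 36, 35 and 35 tags in m6A IP 1, 2 and 3. Its folds were 5.83, 3.83 and 4.47, over backgrounds of 5.34, 8.40 and 7.04 tags. The height was nearly the same in each replicate and the fold was not. The next were chr18:37304922-37305045 with 28, 30 and 31 tags and a fold of 3.51 ± 0.802 (SD, n = 3), which was also the last recurrent region of the block, and chr18:37303833-37304036 with 29, 30 and 24 tags and a fold of 6.40 ± 1.15. All 3 belong to the run chr18:37303292-37306110, which held 8 regions, 4 of them recurrent.

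Low alpha regions could have higher folds than these. The first of the block, chr18:37091579-37091816, had folds of 7.37, 10.3 and 5.85 over backgrounds under 1 tag. The longest, 349 bases at chr18:37128939-37129287, had 12, 13 and 15 tags and a fold of 7.79 ± 0.624. The most variable fold of the block was at chr18:37120009-37120116, where it was 10.2, 5.0 and 5.73 with pileups of 15, 18 and 7 tags. There m6A IP 2 had the highest pileup and the lowest fold, over a background of 2.80 tags against 0.572 and 0.396. Mean pileups of the 18 recurrent alpha regions ran from 8.67 to 35.3 tags and mean folds from 3.51 to 7.83.

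The beta block had the recurrent region with the highest mean fold of the locus, 10.9 ± 3.92 (SD, n = 3), at chr18:37603982-37604222. Its folds were 14.5, 6.71 and 11.4, with pileups of 24, 17 and 19 tags over 0.725, 1.68 and 0.749 tags of background. The background of m6A IP 2 was the highest of the 3 and its fold the lowest. The same order was seen at chr18:37582804-37583272, the most variable beta region, with folds of 15.3, 3.45 and 10.1 and backgrounds of 0.763, 3.92 and 0.881 tags. At chr18:37609034-37609614, a region of 581 bases, the folds were 11.9, 4.74 and 11.4. The background in m6A IP 2 was 4.48 tags there, against 1.26 and 0.925. Other variable beta regions differed. At chr18:37462740-37462970 m6A IP 3 had the lowest fold, 3.32 against 10.8 and 7.81 in m6A IP 1 and 2. At chr18:37480797-37481086 m6A IP 2 had the highest, 8.73 against 3.94 and 3.84 in m6A IP 1 and 3.

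The tallest beta region, chr18:37665637-37666181, had 31, 26 and 33 tags and a fold of 9.32 ± 1.10 (SD, n = 3). It was 1 of the 2 beta regions that stayed recurrent at a −log10 q-value of at least 10, with chr18:37516467-37516938, whose pileups were 18, 21 and 15. The longest beta region, 585 bases at chr18:37596954-37597538, was also the second tallest, with 29, 29 and 21 tags and folds of 11.9, 7.89 and 6.04. The first recurrent region was below the block's median mean pileup of 15.7 tags and the last was at it. The first, chr18:37456293-37456572, had 11, 13 and 13 tags, and the last, chr18:37679612-37680068, had 18, 16 and 13 tags over 6 merged peaks. Mean pileups of the 40 recurrent beta regions ran from 7.67 to 30.0 tags, and 2 of them (5.0%) reached 25 tags, against 47.4% elsewhere.

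The gamma block held the tallest regions of the locus. At chr18:37966135-37966320 the pileups were 43, 47 and 41 tags and the folds 5.59, 7.27 and 6.29, over backgrounds of 6.87, 5.60 and 5.68 tags. The last region of the block, chr18:37981542-37981763, had 38, 37 and 34 tags and a fold of 5.04 ± 0.497 (SD, n = 3). Beside it, chr18:37981245-37981412 had 36, 35 and 36 tags and a fold of 3.58 ± 0.601. These heights were nearly level between replicates. In gamma, 14 of 32 recurrent regions (43.8%) had a mean pileup of at least 25 tags, near the 47.4% elsewhere.

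Several gamma regions upstream of these combined a middle height with a high and even fold. The folds were 10.4, 10.3 and 11.03 at chr18:37881957-37882233, with 19, 20 and 16 tags, and 11.8, 10.4 and 9.32 at chr18:37923317-37923543, with 19, 19 and 16 tags. With the beta region above they are the 3 recurrent regions of the locus with a mean fold of at least 10, 3.33% of 90, against 4.31% elsewhere. These 2, named after their values were seen, were also recurrent at a −log10 q-value of at least 10. The longest region of the locus, 679 bases at chr18:37855765-37856443, merged 6 peaks and had 22, 20 and 18 tags. The first recurrent gamma region, chr18:37823392-37823598, had the most variable fold of the block, 8.70, 3.44 and 4.35, with pileups of 16, 14 and 11 tags. Upstream of it the block held 6 regions, none recurrent, and the lists do not tell whether they belong to gamma genes or to the genes between the beta and gamma clusters.

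Late stretches of the alpha and gamma blocks had higher medians of pileup and input and lower folds than the stretches before them. Stretches were separated at gaps of over 30 kb, a limit chosen after the gaps were seen. In gamma, 16 regions from 37966135 to 37981763 followed a gap of 38.0 kb. Their median pileup was 31, 34 and 29.5 tags, against 17, 15.5 and 16 before the gap, and their median background was 6.87, 8.40 and 7.04 tags against 1.53, 1.79 and 1.76. The median fold was 3.64, 3.32 and 3.70, lower than the 6.26, 5.45 and 5.51 before the gap. In each replicate the later stretch had the higher median pileup and background and the lower median fold. Single peaks overlapped, with pileups of 15 to 43, 24 to 47 and 20 to 41 tags in the later stretch and 4 to 32, 7 to 34 and 9 to 29 in the earlier one.

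The alpha group from 37303292 to 37306110, after a gap of 51.2 kb, showed the same order against the first of the 4 alpha stretches. Its median pileup was 25, 27.5 and 24 tags and its background 5.34, 4.62 and 7.04 tags, while the first alpha stretch had 10.5, 12 and 11 tags over 0.954, 1.01 and 0.969. The fold was 4.44, 4.35 and 4.47 against 5.82, 6.13 and 5.42. Between them lay 4 regions from 37249772 to 37252125 with median pileups of 8, 14 and 8.5 tags and folds of 5.59, 5.60 and 5.05. Beyond the group, 1 region ended the block, chr18:37344847-37344902, with 35 tags and a fold of 2.72 in m6A IP 1 and no peak in the other lists. Recurrence was 4 of 8 regions against 13 of 37 in alpha, and 7 of 16 against 25 of 64 in gamma, with overlapping Wilson intervals. The beta block, split by a gap of 43.7 kb, showed a smaller step: its second stretch had 14.5, 16 and 13 tags over 1.35, 1.78 and 1.48, and its first 11, 13 and 13 tags over 0.763, 1.15 and 0.881. The background was higher in 3 of 3 replicates and the pileup in 2 of 3. The fold was 6.01, 5.57 and 5.84 against 5.22, 5.92 and 6.36, higher in 1 of 3.

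Replicates ranked the recurrent regions alike by height and less so by fold. Across the 90 recurrent regions, Spearman's rho of the pileup was 0.854, 0.849 and 0.841 for the pairs 1 and 2, 1 and 3, and 2 and 3. For the fold it was 0.368, 0.442 and 0.410. Elsewhere the values were 0.941, 0.943 and 0.936 for pileup and 0.641, 0.618 and 0.627 for fold. Within gamma (32 regions) the fold gave 0.592, 0.645 and 0.740, and within beta (40 regions) 0.140, 0.390 and 0.0855. Alpha (18 regions) gave 0.213, 0.00879 and 0.371. Regions share their libraries and are not independent, pileups span a narrower range here than elsewhere, and no p-value was computed.

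Sequence shared between paralogs limits how surely some tags belong to their place in this locus. A 50-base stretch is the tag length given in the file headers. Of all such stretches in the first exons of these genes in GENCODE M21, 11.8% in alpha, 4.17% in beta and 3.52% in gamma occurred without a mismatch in the first exon of another gene of the 3 clusters. The share per gene ran from 0% to 23.4%, and 10 of 57 genes shared none. How tags with several matches were placed is not given in the sources used here, so single regions of this locus remain uncertain in position and height.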

How the data were processed

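m6A-seq of whole mouse brain was analysed from 3 peak lists, 1 per IP and input pair. Peaks were called per replicate with MACS 2.1.0.20151222 at a q-value cutoff of 0.05, keeping 1 tag per position, per the file headers. TopHat2 2.1.0 and the build mm9 come from the submitters' processing notes. The pileup is a coverage signal deposited by the authors without scaling, since each IP was smaller than its input. The fold is the authors' ratio at the summit, and p-values and q-values were deposited as −log10. The input background was computed as (pileup + 1) / fold − 1. A region's value in a replicate is that of its tallest peak there.

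The blocks, the members and all groupings were chosen with earlier results of these data known. Named were, per block, the first, the last, the longest, the 3 tallest and the most variable recurrent region in fold, and the highest mean fold of the locus. Other regions named were chosen after their values were seen. Blocks were compared within a replicate by an exact sign-flip permutation test. The annotation at hand was on GRCm38, so no coordinate was compared with it and GENCODE and RefSeq gave names, order, strand and exon lengths only. No sequence of the locus is shown. Merging and runs were run on simulated lists with close neighbours, where 4000 regions and 1178 runs were found of 4000 and 1178 planted. All simulated gaps lay well away from the run limit, and no list had several peaks in a region. This therefore checked the code only, and not how the limit or the merging acts on the gaps and peaks of these data. Alternatives changed the peak threshold, the overlap, the list length, the block assignment, the number of replicates and the run limit. The input libraries entered only through the lists. Computation was in Python 3.11.15 with scipy 1.17.1, pandas 2.3.3 and numpy 2.4.6, and plots were drawn in matplotlib 3.10.9.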

Additional observations from a re-analysis of the deposited data

How the results depend on the processing

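Of 162 values recomputed under the alternatives, 124 stayed within their spread or interval (counts within 1.5 times) and 38 did not. The cause was not tested, except where fewer peaks enter by construction. Peak lengths and pileups do not depend on the overlap rule, so under it they could not move. Results on runs were recomputed only with other run limits and with a replicate left out, and not with stricter peaks or overlaps. Assigning peaks by midpoint moved nothing. With a −log10 q of at least 10, 14 regions recurred in place of 90, the alpha and beta shares were 14.3% and 9.09%, the median gaps 272, 148698 and 9258 bases in alpha, beta and gamma, the lengths 201, 201 and 234 bases and the pileups 19, 22.2 and 24.7 tags. With a reciprocal overlap of 50%, 55 regions recurred, the shares were 22.0%, 12.5% and 24.2%, and the beta gap was 6902 bases. Beta had the highest share of the blocks in the main analysis and the lowest here. The share over the whole series was not computed for this setting, for the fold limit below or with a replicate left out. With a fold of at least 4, the beta share was 32.3% and the gamma length 144 bases. With lists of equal length, the beta gap was 6143 bases, the beta and gamma lengths 119 and 149 bases and the pileups 15 and 19.3 tags. If 2 replicates were enough, 140 regions recurred, with shares of 56.0%, 65.6% and 61.3%. A run limit of 3000 bases gave 16 gamma runs, 50% of those with 2 or more regions spanning 2000 to 2500 bases.

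Leaving out each replicate in turn gave 95 to 127 recurrent regions and shares of 44.2% to 55.3% in alpha, 50.6% to 61.1% in beta and 48.6% to 59.7% in gamma, with 2 lists required. The median gaps were 1614 to 5825, 1328 to 1566 and 1700 to 3504 bases. Lengths were 94.0 to 116, 102 to 106 and 121 to 136 bases, and pileups 11.8 to 12.8, 13 to 14 and 18.3 to 18.8 tags. There were 14 to 16, 20 to 23 and 24 to 25 runs, with the tallest region downstream in 54.5% to 81.8%, 84.2% to 100% and 78.9% to 88.2%. Spans of 2000 to 2500 bases made up 9.09% to 18.2%, 68.2% to 81.0% and 63.2% to 72.7%. The downstream share was lowest without m6A IP 1 in alpha and beta and without m6A IP 2 in gamma. No paired analysis was possible because the input libraries have no list of their own to set against the IP lists, while blocks were compared within each replicate in the main tests.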

Other observations

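Peaks over an input at its lowest possible value were rare in the locus. The lowest background of a list was 0.152, 0.174 and 0.169 tags in m6A IP 1, 2 and 3. Within 0.01 tags of it lay 2, 0 and 0 peaks of the locus, against 7.99%, 5.93% and 9.0% of peaks elsewhere. Both were in the beta block of m6A IP 1, with a pileup of 4 tags, and neither lay in a recurrent region.

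Each block had fewer peaks in m6A IP 3 than in m6A IP 1, as did the whole lists. Whether the loss was even between blocks was not tested. Beta held 85 peaks in m6A IP 1 and 65 in m6A IP 3, gamma 66 and 40, and alpha 39 and 24, while the whole lists held 32858 and 24686. The peaks of the locus covered 29.1, 23.3 and 17.4 kb in m6A IP 1, 2 and 3.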
